A study of Mus musculus with 6 samples.

Results

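The serpins are a large family of proteins that share 1 fold, and most of them are suicide inhibitors of serine proteases. They were followed here in lateral ventricle choroid plexus, the vascularised epithelial tissue that makes cerebrospinal fluid, in young and aged mice. Members were all genes whose array probe set carried a single gene symbol beginning with Serpin in the platform annotation. There were 40 such genes, read by 56 probe sets, of 18193 genes on the array. Of the 69 Serpin symbols in a RefSeq gene table of the mouse (assembly GRCm38.p6), the remaining 29 were not analysed here, and all genes of clade E were among these.

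The data were 6 Affymetrix expression arrays of male CD1 mice, an outbred stock, 3 aged 18 months and 3 aged 2 months. The plexuses of the left and right lateral ventricles of a mouse were combined on its array, so the arrays are separate animals, and the labels name no treatment or mutation for either group. Values are log2 intensities, which compare 1 probe set between arrays and do not rank genes against each other. A difference is 18 months minus 2 months, with the standard error (SE) of a limma fit over all genes, and spreads of a group are standard deviations (SD).

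A serpin presents an exposed reactive loop as bait. When a target protease cuts the loop, the serpin springs into a more stable shape, and both proteins are left locked together and inactive. The family is divided into clades by letter. Clade A holds secreted proteins, many of them made by the liver and released into blood, such as alpha-1-antitrypsin. Clade B serpins lack a classical secretion signal, act mostly inside cells and protect them from proteases of lysosomes and granules. Other clades hold the regulators of clotting, complement and fibrinolysis, and some members, such as the collagen chaperone Serpinh1, inhibit no protease. Mice carry many more clade A and clade B copies than humans, in tandem arrays of close paralogs that 1 probe set may read together.

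The tissue carried its label. The epithelial marker Ttr had log2 intensities of 14.36, 14.30 and 14.25 at 18 months and 14.48, 14.48 and 14.46 at 2 months, and all 10 epithelial markers with a probe set had means above the highest bacterial control probe set, at 4.51, which served as a gauge of background. Brain tissue was present in amounts that differed between mice: the summed linear intensity of 10 neuron markers ran from 2347 to 8990 at 18 months and from 2495 to 8195 at 2 months. Arrays correlated at 0.919 to 0.952 over all genes tested, and 18-month replicate 3 and 2-month replicate 2 lay at the ends of principal component 1. The difference between the 3' and 5' Gapdh control probe sets, a measure of RNA integrity, was 1.24 to 1.55 at 18 months and 1.43 to 1.67 at 2 months.

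The results turn on the alpha-1-antitrypsin genes, close copies of each other, and their promoter windows are shown for how alike they are. Transcript and probe sequences were not compared here, so that which copies a probe set reads was not tested. The genes Serpina1b, Serpina1d, Serpina1a, Serpina1c and Serpina1e follow each other on chromosome 12. The RefSeq promoter windows (GRCm38.p6, 250 bases before to 50 after the start of the gene, 5′ to 3′ on the strand of the gene) of Serpina1b (chr12:103738140-103738439, minus strand) and Serpina1c (chr12:103904901-103905200, minus strand) are shown as the pair with probe sets of their own. Capitals mark the letters GTTAAT, the core of the sequence bound by the liver transcription factor HNF1.
Serpina1b: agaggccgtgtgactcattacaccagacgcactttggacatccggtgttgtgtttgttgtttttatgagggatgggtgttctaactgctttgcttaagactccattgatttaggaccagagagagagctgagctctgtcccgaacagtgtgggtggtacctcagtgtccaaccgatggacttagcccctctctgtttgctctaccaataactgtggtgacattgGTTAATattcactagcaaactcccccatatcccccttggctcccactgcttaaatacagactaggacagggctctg
Serpina1c: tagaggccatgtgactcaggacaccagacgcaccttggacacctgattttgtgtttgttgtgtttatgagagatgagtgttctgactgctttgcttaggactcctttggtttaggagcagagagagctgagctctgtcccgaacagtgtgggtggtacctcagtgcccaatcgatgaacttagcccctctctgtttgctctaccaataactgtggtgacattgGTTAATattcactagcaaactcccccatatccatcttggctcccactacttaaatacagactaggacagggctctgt
In a global alignment these windows were identical at 92.6% of 298 aligned bases. Over the 10 pairs of the 5 Serpina1 genes identity was 91.7% to 98.4% of the aligned bases. GTTAAT, searched on both strands, stood in all 5 windows, ending 21 bases before the start in Serpina1b and 22 in Serpina1c. It occurs in 7.10% of all 32851 mouse windows of this length. Matches among copies of 1 gene are not independent, and a match is a description of letters, not of binding.

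The window of Serpina3n (chr12:104406458-104406757, plus strand), the last gene of the same cluster, is shown because this gene was also higher in aged mice. Capitals mark the letters GGG followed after any 5 bases by CC, a loose form of the site of the inflammatory factor NF-kB, searched on both strands, with matches on the 2 strands that overlap each other.
Serpina3n: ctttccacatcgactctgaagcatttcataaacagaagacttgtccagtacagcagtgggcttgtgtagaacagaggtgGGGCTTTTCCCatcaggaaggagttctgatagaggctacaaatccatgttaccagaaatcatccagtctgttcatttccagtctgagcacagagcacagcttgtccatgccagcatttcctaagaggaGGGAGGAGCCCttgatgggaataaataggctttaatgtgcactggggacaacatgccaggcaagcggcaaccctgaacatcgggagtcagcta
That motif occurs in 50.8% of all windows and also in each of the 5 Serpina1 windows, where it is not marked, so that its presence sets Serpina3n apart from neither. The letters TTC and GAA with 3 bases between, a STAT site, occur in 8.30% of windows, and were found in that of Serpina11 but not of Serpina3n. The window shared 48.4% of its aligned bases with that of Serpina1c, and GTTAAT was not among its letters. Of the 40 genes, 34 had a promoter window in the RefSeq table.

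Most Serpin genes were dim in this tissue. A gene was tested if the mean log2 intensity of its brightest probe set reached 4.92, the 40th percentile of all probe sets other than controls. This held for 14 of the 40 Serpin genes, or 35%, against 69.7% of all genes on the array. The other 26 had means between 1.63 and 4.37, all under the highest bacterial control. At the edge of the filter lay Serpinb6e (4.37) and Serpina12 (4.24) outside and Serpina11 (5.01) and Serpind1 (5.32) inside. The dim genes included several whose products circulate in blood from the liver. Serpinc1, antithrombin, had 3.99, 4.03 and 3.90 at 18 months, against 3.86, 4.03 and 4.11 at 2 months. Serpinf2, alpha-2-antiplasmin, had 4.36, 4.12 and 3.95 against 4.15, 4.34 and 4.13. Both lay under the highest bacterial control in every mouse, as did Serpini2, a pancreatic clade I member (3.24, 3.08 and 3.36 against 3.23, 3.46 and 3.14). The carriers of corticosteroids, Serpina6, and of thyroxine, Serpina7, had means of 2.66 and 1.63, and Serpina10, a regulator of clotting, 3.62. In a fit without the filter, differences of the 26 dim genes ran from -0.28 (Serpina3i) to 0.19 (Serpinb6c), and the smallest unadjusted p among them was 0.110 (limma, Serpina3i).

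By limma with Benjamini-Hochberg adjustment over the 12681 genes tested, 0 of the 14 Serpin genes passed an adjusted p of 0.05, and 0 genes passed over the whole table, a background of 0%. The words higher and lower below therefore describe measured values and not called changes. At an unadjusted p under 0.05 there were 4 Serpin genes higher at 18 months, against 4.02% of all genes, and 1 lower, against 3.03%. The same 5 genes had separate ranges, every mouse of one age lying beyond every mouse of the other, which held for 13.3% of all genes tested. Serpina11 and Serpina3n passed the filter only through their 18-month values, since their 2-month means of 4.72 and 4.78 lay under it, so that they had to be higher at 18 months to be counted at all. Over single probe sets, 0 of the 56 for Serpin genes passed an adjusted p of 0.05 in limma, against 0.00222% of all 45037, and 7 had an unadjusted p under 0.05, or 12.5%, against 5.68%. The values of each mouse are shown in the plot of the 14 genes.

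**Figure D1:**
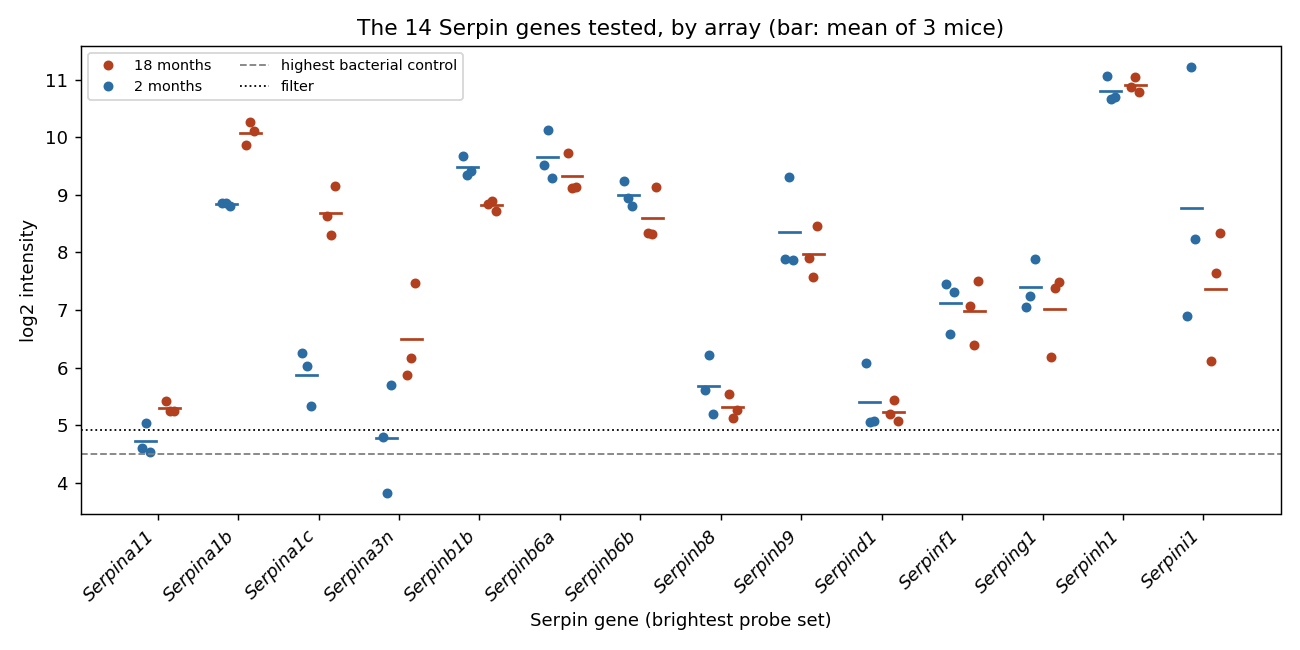
Log2 intensity of the 14 Serpin genes tested, on the y axis, for each gene on the x axis, with 1 point per mouse (red, 18 months; blue, 2 months) and a bar at the mean of 3. The dashed line is the highest bacterial control (4.51) and the dotted line the filter (4.92). The clade A genes, at the left, have all 18-month points above all 2-month points. Of these, Serpina11 and Serpina3n passed the filter only through their 18-month values.

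Clade A, the clade of alpha-1-antitrypsin, had 14 genes on the array and 4 tested. Those 4 were higher at 18 months in every mouse, with differences from 0.58 to 2.82 and a median of 1.48. Serpina1b and Serpina1c were above the filter at both ages, while Serpina11 and Serpina3n, which were not, could be counted only by being higher. The count and the median of clade A are therefore not read against those of all genes tested, of which 50.4% lay above 0 with a median of 0.00.

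Serpina1c, a mouse copy of alpha-1-antitrypsin, the secreted inhibitor of neutrophil elastase, had log2 intensities of 8.63, 8.30 and 9.15 at 18 months and 6.25, 6.03 and 5.33 at 2 months. The dimmest aged mouse was above the brightest young mouse by a wide margin, and the young values stood above the bacterial controls. The difference was 2.82 (SE 0.32, 95% interval 2.04 to 3.60), or 7.06-fold (limma, adjusted p = 0.118; higher in all 3 mice). By size of p it ranked 8 among all genes tested. Leaving out any 1 mouse gave 2.55 to 3.02.

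Serpina1b, another copy, had 9.86, 10.26 and 10.11 at 18 months, against 8.86, 8.85 and 8.81 at 2 months on its brighter probe set. The young mice were nearly identical, and each aged mouse lay at least 1 log2 unit above them. The difference was 1.23 (SE 0.17, 95% interval 0.82 to 1.65), or 2.35-fold (limma, adjusted p = 0.185). Its second probe set had 9.20, 9.53 and 9.42 against 8.18, 8.54 and 8.32, a difference of 1.04 (SE 0.18), in the same direction and with separate ranges. Both Serpina1b probe sets are of the Affymetrix class marked _x_at, some of whose probes may bind related transcripts.

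Serpina1c was also set against Serpina1b within each mouse. Within each array, Serpina1c minus Serpina1b was -1.23, -1.96 and -0.96 at 18 months and -2.60, -2.83 and -3.48 at 2 months, again without overlap. The mean of these values was 1.59 higher at 18 months (exact permutation p = 0.1, two-sided, the smallest that 3 mice against 3 allow). With 3 mice a group this test could not pass 0.05 whatever the values. A difference in slope between probe sets and one between genes cannot be told apart here.

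**Figure D2:**
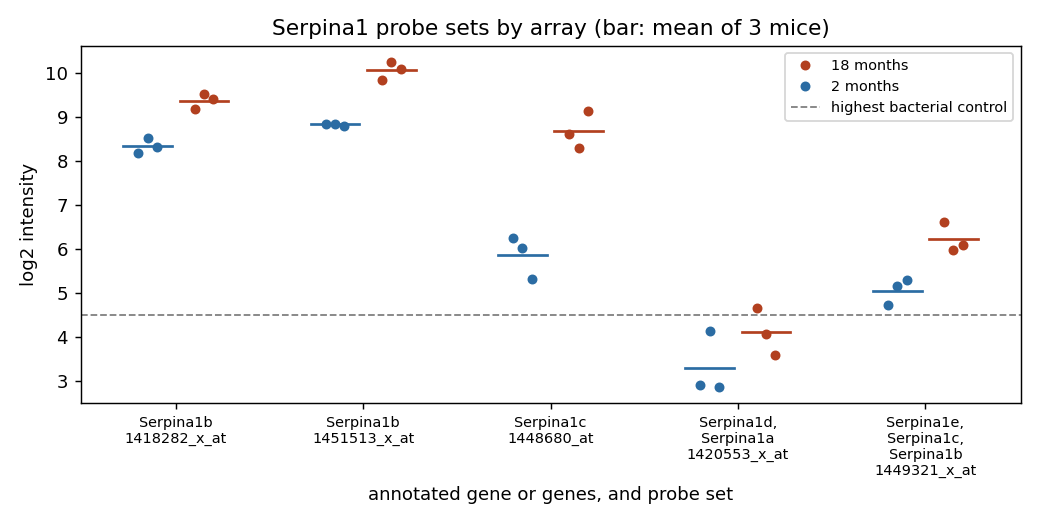
Log2 intensity (y axis) of the 5 probe sets annotated to Serpina1 genes (x axis), with 1 point per mouse (red, 18 months; blue, 2 months) and a bar at the mean of 3. The 3 probe sets for Serpina1b or Serpina1c alone and the one shared by Serpina1e, Serpina1c and Serpina1b have separate ranges, while that shared by Serpina1d and Serpina1a overlaps and lies mostly under the bacterial control (dashed line).

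Alpha-1-antitrypsin is best known as a liver product, so markers of liver were set beside it. Of 10 liver markers other than Ttr, which the plexus itself makes, 5 had means under the highest bacterial control (Alb, Apoh, Fga, Fgg and Hpx). The albumin gene Alb was read as 4.41, 4.31 and 3.93 in aged and 4.77, 4.40 and 4.28 in young mice. The summed intensity of the 10 was 232 to 354 at 18 months and 254 to 269 at 2 months, with overlap between the ages. Albumin was thus at or near background in both groups. Of the liver markers above the control, Apoa1, which carries cholesterol, was read as 7.07, 5.95 and 5.64 in aged and 5.24, 5.34 and 5.80 in young mice. Its difference was 0.76 (SE 0.39), with overlap. The others above the control, Fgb, Ambp, Ahsg and Apoa2, had differences of 0.08, 0.01, -0.03 and -0.06, also with overlap. Sums of other marker lists did differ with age. The summed intensity of 7 pituitary markers was 869 to 2042 at 18 months and 279 to 383 at 2 months. The 3 of them tested, Gh, Pomc and Lhb, had differences of 4.98, 1.34 and -0.04. That of 10 neutrophil and mast cell markers was 1316 to 3014 and 700 to 1099. The 7 of these tested were all above 0, from 0.04 (Cma1) and 0.08 (Tpsb2) to 1.26 (S100a9), 1.38 (Kit) and 1.56 (S100a8). Of 11 macrophage markers tested, 9 were above 0, with a median of 0.59 and sums of 4266 to 5778 against 2999 to 5113. Among them 4 were higher at an unadjusted limma p under 0.05, against 4.02% of all genes tested. Tyrobp and C1qa were below 0, at -0.46 and -0.21. Sums of the 10 epithelial markers were lower and separate, at 69811 to 69815 against 72383 to 75333. Singly, 3 of the 10 were above 0 and 7 below, with a median of -0.05. The only one at an unadjusted limma p under 0.05, Aqp1, was higher, at 0.64 (SE 0.24). The part of these cell types in the Serpina1 values was not tested. In samples of whole tissue, more cells of a type and more RNA per cell cannot be told apart.

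Serpina11, a secreted clade A member of little known function that lies next to the Serpina1 genes, had 5.41, 5.25 and 5.25 at 18 months, against 4.60, 5.04 and 4.53 at 2 months. The young mice lay just above the bacterial controls, and the ages did not overlap. The difference was 0.58 (SE 0.20, 95% interval 0.11 to 1.05; limma, adjusted p = 0.672). It is a small difference in a dim gene, and leaving out 18-month replicate 1, 2-month replicate 1 or 2-month replicate 3 gave 0.53, 0.52 and 0.49, with unadjusted limma p of 0.0648, 0.0699 and 0.0713.

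Serpina3n, a homologue of human alpha-1-antichymotrypsin that inhibits granzyme B and cathepsin G and is a well-known marker of reactive astrocytes, had 5.88, 6.16 and 7.46 at 18 months. At 2 months it had 4.80, 3.83 and 5.71, the lowest of these under the bacterial control. The ages did not overlap, but the highest young mouse, replicate 3, lay close to the lowest aged mouse. The difference was 1.72 (SE 0.59, 95% interval 0.32 to 3.13), or 3.30-fold (limma, adjusted p = 0.672). The spread within an age was large, with an SD of 0.84 at 18 months and 0.94 at 2 months.

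Markers of astrocytes were set beside Serpina3n. The summed intensity of 7 astrocyte markers was 1971, 1978 and 4270 at 18 months and 2395, 1451 and 3719 at 2 months. At 18 months replicate 3 was highest in both measures, and at 2 months replicate 3 was highest and replicate 2 lowest in both. Sums of 10 neuron markers (2347, 5224 and 8990 against 3993, 2495 and 8195) had this order too. So did sums of 7 oligodendrocyte markers (2653, 4905 and 6954 against 4994, 1999 and 7373). The part of brain tissue in the Serpina3n values was not tested. Of the 7 astrocyte markers, 5 were higher and 2 lower at 18 months. Gfap, the intermediate filament of reactive astrocytes, had 6.77, 7.77 and 8.92 against 6.58, 6.14 and 8.25. With the mean of the astrocyte markers as a covariate the Serpina3n difference was 1.31 (limma, adjusted p = 0.232, against 0.219 to 0.848 over all alternatives run), and without 18-month replicate 3 and 2-month replicate 2 it was 0.77 (limma, unadjusted p = 0.0999). Leaving out 18-month replicate 3 or 2-month replicate 2 alone gave 1.24 and 1.25. Other Serpina3 copies were under background: Serpina3a had a mean of 2.89 and Serpina3i of 2.75. The Serpina3n probe set may still read close Serpina3 paralogs that were not analysed here.

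**Figure D3:**
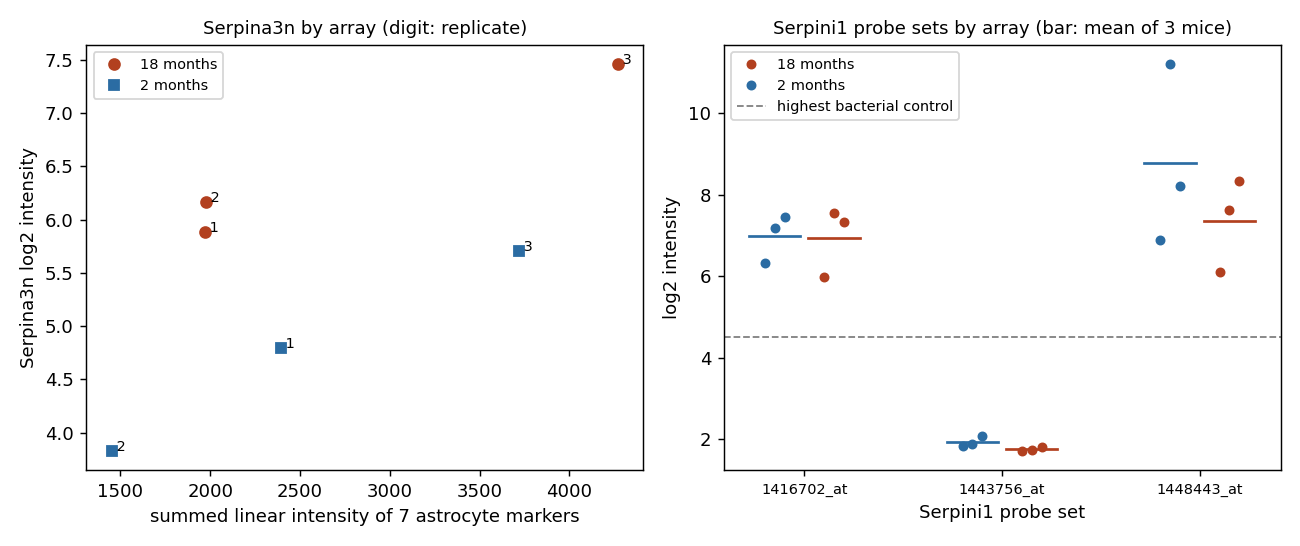
Left, Serpina3n log2 intensity (y axis) against the summed linear intensity of 7 astrocyte markers (x axis) for each mouse (red circles, 18 months; blue squares, 2 months; the digit is the replicate). Right, log2 intensity (y axis) of the 3 Serpini1 probe sets (x axis), with bars at the mean of 3 mice. Replicate 3 is highest at each age on the left, and on the right a single 2-month point at 11.21 on 1 probe set stands apart from its group.

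The other clade A genes on the array, 10 in all, had means under the highest bacterial control. They included Serpina1f (mean 3.69), Serpina5, the protein C inhibitor (2.80), and Serpina12, the adipokine vaspin (4.24), with differences of 0.14, 0.04 and -0.07. In chromosome order the 4 tested genes are not consecutive. Serpina1b, Serpina1c and Serpina11 lie within 1 stretch, dim genes such as Serpina9 (3.37) and Serpina5 follow, and Serpina3n ends the cluster.

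**Figure D4:**
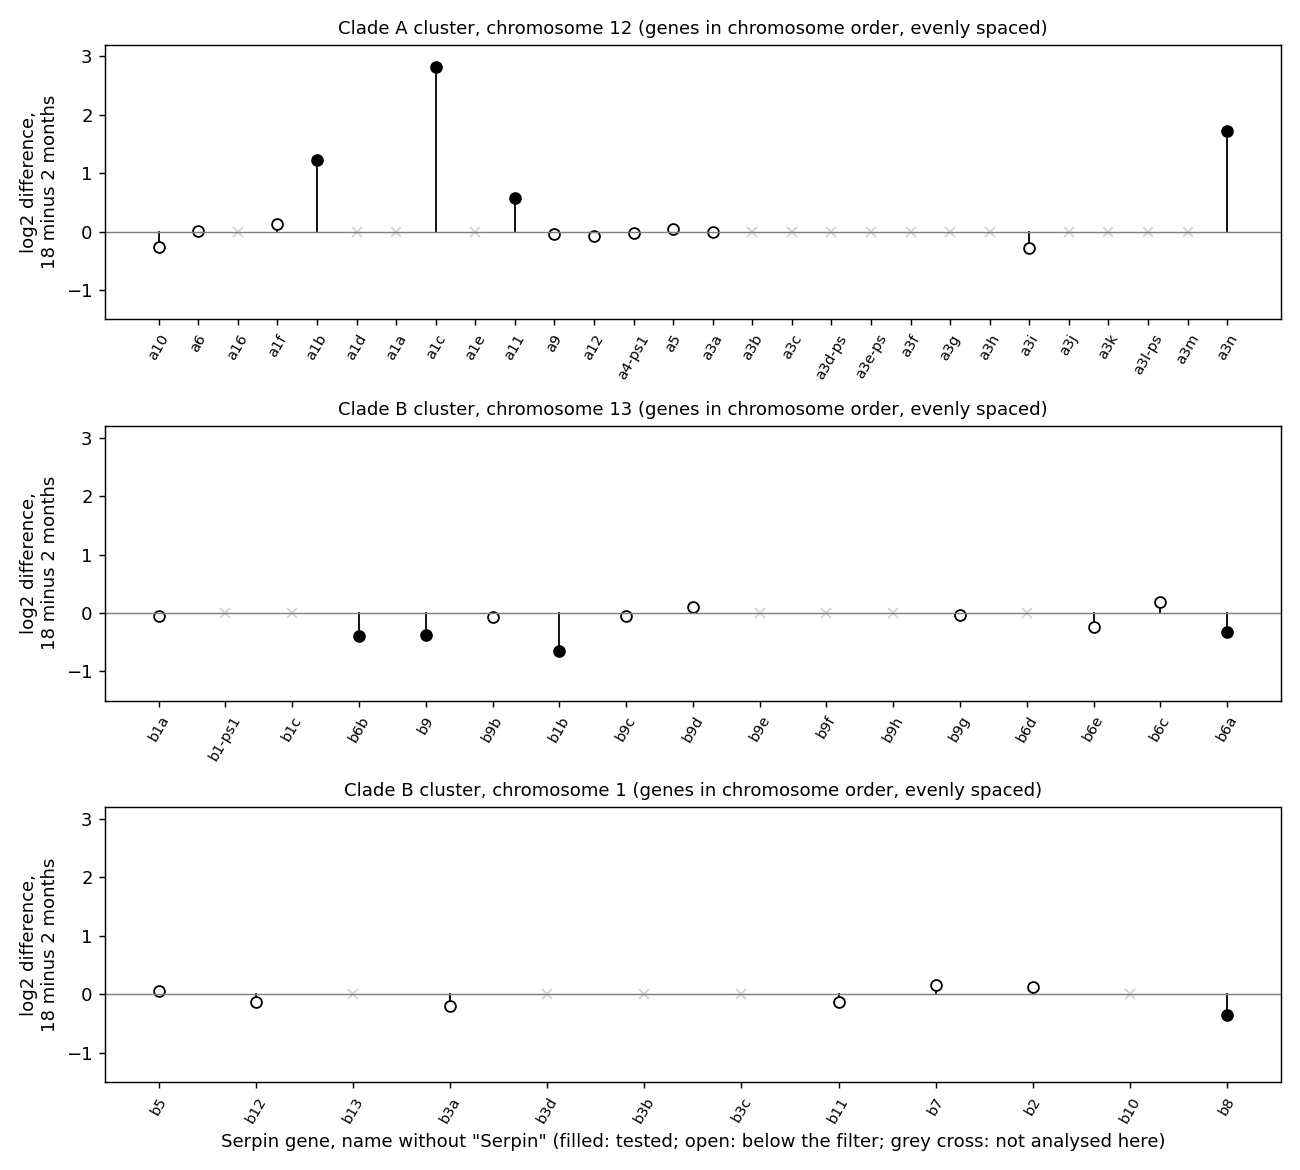
Log2 difference, 18 months minus 2 months (y axis), of Serpin genes in chromosome order (x axis, evenly spaced) for the clade A cluster on chromosome 12 and the clade B clusters on chromosomes 13 and 1, from a fit without the filter. Filled points are genes tested, open points genes below the filter and grey crosses genes not analysed here. The filled points are all above 0 in clade A and all below 0 in clade B. Serpina11 and Serpina3n passed the filter only through their 18-month values, so they could be filled only by being above 0.

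Clade B, the mostly intracellular serpins, had 18 genes on the array and 5 tested. All 5 were lower at 18 months in the mean, with differences from -0.65 to -0.32 and a median of -0.38, but the ages overlapped for 4 of them. The copies on chromosome 13 accounted for 4 of the 5. Of the 7 measured genes in the cluster on chromosome 1, a group that includes the epithelial and skin serpins, only Serpinb8 had a mean above the highest bacterial control.

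Serpinb1b, a copy of the inhibitor of neutrophil elastase and cathepsin G, was the clade B gene with separate ranges. It had 8.84, 8.90 and 8.72 at 18 months, against 9.67, 9.34 and 9.41 at 2 months. Every aged mouse lay below every young mouse, and the spread within an age was small. The difference was -0.65 (SE 0.17, 95% interval -1.06 to -0.24), or 1.57-fold lower (limma, adjusted p = 0.568), and it was -0.72 to -0.56 when any 1 mouse was left out.

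Its paralog Serpinb1a, the main mouse counterpart of human SERPINB1, was read by 2 probe sets that disagreed. The first had 2.85, 3.87 and 5.89 at 18 months, against 2.73, 5.10 and 4.92 at 2 months, above the highest bacterial control in 3 of 6 mice, and its difference was -0.05 (SE 0.94). The second had 3.66, 4.48 and 4.02 against 3.25, 3.01 and 3.29, a difference of 0.87 (SE 0.24; limma over all probe sets, adjusted p = 0.750). All of the values of the second lay under the highest bacterial control, and the gene did not reach the filter. Its direction is therefore not settled by these arrays.

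Serpinb6a, an inhibitor of cathepsin G and other trypsin-like proteases with a wide tissue distribution, had 9.73, 9.12 and 9.14 at 18 months, against 9.51, 10.13 and 9.30 at 2 months. The groups overlapped, and the difference of -0.32 (SE 0.29; limma, adjusted p = 0.853) was -0.52 without 18-month replicate 1, -0.49 without 2-month replicate 3, -0.076 without 2-month replicate 2 and 0.020 without both 18-month replicate 3 and 2-month replicate 2. Its copy Serpinb6b had 8.33, 8.32 and 9.13 against 9.23, 8.94 and 8.81. There 2 aged mice lay below all young mice and aged replicate 3 among them, for a difference of -0.40 (SE 0.27; limma, adjusted p = 0.816), -0.67 without aged replicate 3 and -0.26 without aged replicate 2.

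Serpinb9, the inhibitor of granzyme B that protects cytotoxic and antigen-presenting cells from their own granules, had 7.90, 7.58 and 8.45 at 18 months. At 2 months it had 7.89, 9.32 and 7.87, replicate 2 standing above all other mice. The difference was -0.38 (SE 0.45; limma, adjusted p = 0.891), turned to 0.10 without that mouse, was -0.18 without 18-month replicate 2 and -0.62 to -0.63 without 18-month replicate 3 or either other young mouse, and was 0.01 (SE 0.40) on a second probe set. Markers of T and NK cells, which carry granzymes, were mostly under background: of 7 with a probe set, 2 had means above the highest bacterial control. Copies of Serpinb9 were dim, from Serpinb9d (mean 3.21) to Serpinb9g (1.72).

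Serpinb8, an inhibitor of the proprotein convertase furin, was close to background, with 5.55, 5.13 and 5.26 at 18 months and 5.61, 6.22 and 5.19 at 2 months. The groups overlapped, with a difference of -0.36 (SE 0.29; limma, adjusted p = 0.835), which was -0.088 without 2-month replicate 2 and -0.60 without 2-month replicate 3. A slightly dimmer probe set gave -0.63 (SE 0.28), also with overlapping ages.

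**Figure D5:**
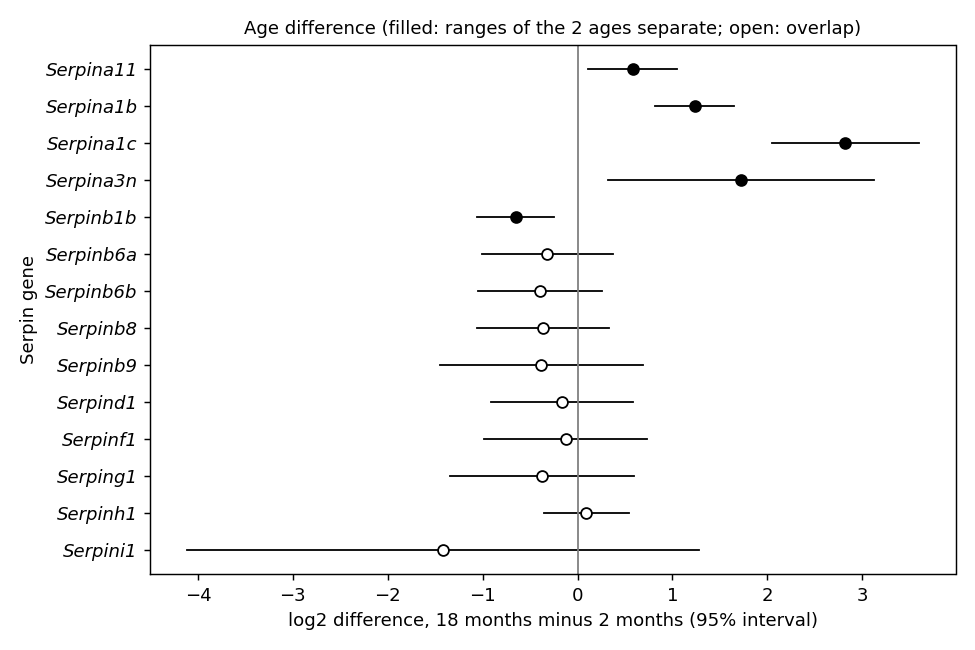
Log2 difference, 18 months minus 2 months (x axis), of the 14 Serpin genes tested (y axis), with 95% intervals from the limma fit. Filled points are the 5 genes whose ranges at the 2 ages were separate. The intervals of 5 genes exclude 0 before adjustment for multiple tests, and that of Serpini1 is the widest, from -4.12 to 1.28.

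The remaining clades had 5 genes above the filter, each the only tested member of its clade, and all 5 overlapped between the ages. Serping1 encodes the C1 inhibitor, which blocks the first proteases of complement and plasma kallikrein. It had 6.19, 7.39 and 7.48 at 18 months, against 7.05, 7.25 and 7.88 at 2 months. Aged replicate 1 was the lowest mouse, and the difference of -0.37 (SE 0.40; limma, adjusted p = 0.876) was 0.042 without it, -0.13 without 2-month replicate 3 and -0.60 without 18-month replicate 3.

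Serpinf1, the pigment epithelium-derived factor, a secreted neurotrophic and anti-angiogenic protein that inhibits no protease, had 7.07, 6.39 and 7.51 against 7.44, 6.59 and 7.31. The 2 ages covered nearly the same range. Its difference was -0.12 (SE 0.36, 95% interval -0.98 to 0.73), the same to 2 decimals on a dimmer probe set (SE 0.19), and -0.39 to 0.18 without any 1 mouse, lowest without 2-month replicate 2 and highest without 18-month replicate 2. Serpind1, heparin cofactor II, a thrombin inhibitor, was near background in all mice but 2-month replicate 1 (5.19, 5.44 and 5.08 against 6.09, 5.05 and 5.07), with a difference of -0.16 (SE 0.31), or 0.18 without that mouse and -0.34 without 2-month replicate 2.

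Serpinh1, the heat shock protein that escorts procollagen through the endoplasmic reticulum, was well above background and varied little. It had 10.87, 11.05 and 10.78 at 18 months, against 11.06, 10.66 and 10.70 at 2 months. The difference was 0.09 (SE 0.19, 95% interval -0.36 to 0.54), a second probe set gave 0.01 (SE 0.26), and the value was 0.020 to 0.22 without any 1 mouse, lowest without 18-month replicate 2 and highest without 2-month replicate 1. Of the collagen chains and folding enzymes with which it works, 16 were tested, of which 5 were above and 11 below 0, with a median of -0.20. None passed an unadjusted limma p of 0.05. Among them Col1a2, a chain of type I collagen, had a difference of -0.48 (SE 0.24) with separate ranges, and the lysyl hydroxylase genes Plod1 and Plod3 had -0.55 (SE 0.24) and 0.37 (SE 0.21). With all probe sets of a gene averaged, Col1a2 was -0.21 and Plod1 -0.043, and Col1a2 was -0.28 without 18-month replicate 1.

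Serpini1 encodes neuroserpin, the neuronal inhibitor of tissue plasminogen activator. Its brightest probe set had 6.11, 7.64 and 8.33 at 18 months, against 6.89, 11.21 and 8.23 at 2 months. The value of 2-month replicate 2 was above all others, in the mouse with the lowest 2-month sum of neuron markers. The difference was -1.42 (SE 1.13; limma, adjusted p = 0.833), -0.20 without that mouse, -0.79 without 18-month replicate 1 and -2.36 without 2-month replicate 1. A second probe set read 7.20 in that mouse, within the range of the others, and had a difference of -0.04 (SE 0.49). Both probe sets were lowest in 18-month replicate 1, which also had the lowest neuron marker sum of its age. The second probe set did not keep the order of these sums. It read 7.55 and 7.33 in 18-month replicates 2 and 3, with sums of 5224 and 8990. At 2 months it read 6.33, 7.20 and 7.46, with sums of 3993, 2495 and 8195. The part of neurons in the Serpini1 values was not tested. The remaining probe set was at background, between 1.71 and 2.09.

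Partner genes of serpins were read from the same fit: proteases and receptors, and also collagen folding genes, inhibitors of other families and the angiotensin pathway. Of 110 partner genes on 9 lists, 62 were tested, with 33 above and 29 below 0 and a median of 0.03. By limma 0 passed an adjusted p of 0.05, while at an unadjusted p under 0.05 there were 4 higher and 1 lower, or 8.06%, against 7.05% of all genes. As a whole, this share was near the background.

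Of the targets of the C1 inhibitor 4 were tested, and they differed widely. C1ra, the first protease of the complement cascade, had 7.70, 7.27 and 7.52 at 18 months, against 5.55, 5.93 and 5.03 at 2 months. The ages were far apart, with a difference of 2.00 (SE 0.27; limma, adjusted p = 0.185). C1s1, the protease that C1r activates, had 5.81, 6.08 and 6.14 against 5.16, 5.07 and 3.96, a difference of 1.28 (SE 0.34; limma, adjusted p = 0.568), its lowest value lying under the highest bacterial control. Its 2-month mean of 4.73 was under the filter, so that it was tested only through its 18-month values. Mice have a close copy of each of these genes that its probe set may also read. Masp1 and Masp2, of the lectin pathway, gave 0.07 (SE 0.16) and 0.11 (SE 0.38), with overlap. The median of the 4, 0.69, rests on C1s1 being counted. C1ra, a target above the filter at both ages, thus had separate ranges, which held for 13.3% of all genes tested. The targets Masp1 and Masp2 and the inhibitor gene Serping1 had overlapping ones.

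In the list of thrombin and coagulation genes, 5 of 7 tested were above 0, with a median of 0.21. F2r, the thrombin receptor cleaved by the protease that Serpind1 inhibits, had 9.12, 9.72 and 9.30 at 18 months, against 6.54, 8.46 and 6.22 at 2 months. Every aged mouse was above every young one, though 2-month replicate 2 came within 1 log2 unit. The difference was 2.31 (SE 0.58; limma, adjusted p = 0.559), or 3.00 without that mouse. The tissue factor gene F3 and its inhibitor gene Tfpi overlapped, at 0.72 (SE 0.41) and 0.52 (SE 0.26). F3 was 1.13 without 18-month replicate 1, 0.45 without 18-month replicate 2 and 0.47 without 2-month replicate 2, and Tfpi 0.29 without 2-month replicate 1.

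Plasminogen activation, the system that neuroserpin restrains, had 2 of 7 tested genes above 0 and a median of -0.02. Plau, urokinase, was not tested because its mean lay under the filter, and had 4.66, 5.27 and 5.39 against 3.98, 4.22 and 3.38. Its ages were separate, with the young values all under the highest bacterial control and a measured difference of 1.25. Plat, tissue plasminogen activator, had 4.77, 5.34 and 6.11 against 5.87, 4.59 and 6.83, overlapping throughout. Its difference was -0.36 (SE 0.61; limma, adjusted p = 0.924), 0.18 without 2-month replicate 3, -0.035 without 18-month replicate 1, -0.71 without 18-month replicate 3 and -0.94 without 2-month replicate 2. Vtn, which stabilises plasminogen activator inhibitor, gave 0.18 (SE 0.17), Plgrkt, a plasminogen receptor, -0.48 (SE 0.37), and Anxa2 -0.41 (SE 0.42). Without any 1 mouse Plgrkt was -0.73 (18-month replicate 1) to -0.13 (2-month replicate 3) and Anxa2 -0.67 (2-month replicate 1) to 0.088 (2-month replicate 2), and Vtn was 0.092 when its probe sets were averaged.

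Granule proteins of leukocytes, a list that includes targets of Serpina1, Serpina3n and Serpinb9, were mostly dim. Of 13 on the array 4 were above the highest bacterial control, and the 4 tested had a median of 0.06. Gzmm, granzyme M, had separate ranges at a difference of 0.32 (SE 0.18), while the perforin gene Prf1 gave -0.17 (SE 0.17) and the mast cell tryptase gene Tpsb2 0.08 (SE 0.19). Prf1 was -0.081 without 2-month replicate 2, and Tpsb2 -0.048 without 18-month replicate 1 and 0.14 without 18-month replicate 3. Trypsin-like proteases of brain and epithelia had 4 of 6 above 0. Klk8, neuropsin, was lower in each aged mouse (5.97, 6.36 and 6.02 against 6.69, 7.79 and 6.38; difference -0.84, SE 0.38), and Prss23 gave -0.51 (SE 0.23), Tmprss2 0.52 (SE 0.27) and Htra1 0.16 (SE 0.28). Klk8 was -0.42 without 2-month replicate 2, and Tmprss2 0.29 without 2-month replicate 1. Prss23 was -0.32 when its probe sets were averaged, and Htra1 -0.11 without 18-month replicate 3 and 0.32 without 18-month replicate 1.

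Among inhibitors of other families, 5 of 10 were above 0 and the median was -0.01. A2m, the broad protease trap alpha-2-macroglobulin, had 8.74, 8.82 and 8.73 at 18 months, against 9.49, 9.54 and 9.54 at 2 months. These were tight and separate groups, with a difference of -0.76 (SE 0.15; limma, adjusted p = 0.369), opposite in sign to those of Serpina1b and Serpina1c. Timp4, an inhibitor of matrix metalloproteinases, had 5.73, 9.26 and 6.99 against 5.08, 3.74 and 5.53. Its difference of 2.54 (SE 0.92; limma, adjusted p = 0.682) depended on 18-month replicate 2, without which it was 1.58. It was 1.32 when its probe sets were averaged, and its 2-month mean of 4.78 was under the filter. Spint2, an inhibitor of membrane serine proteases, was lower in each aged mouse by a small margin, at -0.22 (SE 0.16).

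Receptors that clear serpin complexes or respond to serpins had 5 of 7 above 0 and a median of 0.17. Lrp1, the endocytic receptor for protease and serpin complexes, gave -0.01 (SE 0.21), a value whose sign turned under quantile normalization (0.0055). Vldlr gave 0.24 (SE 0.18), Pnpla2, a lipase that binds Serpinf1, 0.39 (SE 0.23), and the laminin receptor gene Rpsa, reported to bind the same protein, with separate ranges, 0.17 (SE 0.16). Pnpla2 was 0.12 when its probe sets were averaged, Vldlr 0.12 without 2-month replicate 3 and Rpsa 0.10 without 18-month replicate 1. In the angiotensin pathway, whose precursor is itself a serpin, Ace gave -0.17 (SE 0.22) and Atp6ap2 -0.03 (SE 0.15), both turning in sign without 1 mouse.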

How the data were processed

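Total RNA of whole lateral ventricle choroid plexus was extracted with the miRNeasy kit and amplified with a Nugen Pico kit, per the labels' protocols. The authors deposited linear intensities of 45101 probe sets, made with RMA per the submitters' processing notes (version not given in the sources used here), from 2.47 to 26820.7, and their log2 was taken. RMA normalizes arrays to each other, so that a shift of all genes cannot be seen, and RNA amplification can distort dim transcripts. The number of arrays limits the precision.

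Probe sets with 1 gene symbol in the platform annotation were used (34945 of 45037 that are not controls), the brightest probe set standing for a gene. All 40 Serpin gene identifiers matched the RefSeq table. Genes were filtered at the 40th percentile and ages compared with limma 3.58.1 in R 4.3.3 (6.61 degrees of freedom), and promoter windows were aligned with Biopython 1.88. The fit was tested on simulated data with 200 changed genes and normal noise drawn separately for each gene. At an adjusted limma p of 0.05 it called 17.9% of 2-fold, 85.1% of 4-fold and 96.4% of 8-fold changes. A count of 0 therefore says little about changes near 2-fold or smaller. Named genes were Serpin genes with an unadjusted p under 0.05 or separate ranges, a list of members chosen for their role, the 3 partner genes with the smallest p in each list, and 8 further partner genes. Members, lists and rules were chosen with earlier results of these data known. Alternatives were other filters, probe set rules, normalizations, an intensity trend, array weights, a neuron covariate, a replicate block and leaving out each mouse. An astrocyte covariate and leaving out 2 arrays that stood at opposite ends of principal component 1 were added after seeing the data.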

Additional observations from a re-analysis of the deposited data

Results flagged for a closer look

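A probe set annotated jointly to Serpina1e, Serpina1c and Serpina1b was left out of the gene comparison because it names several genes, yet its signal was above the highest bacterial control in all 6 mice. Its mean log2 intensity was 6.23 at 18 months and 5.06 at 2 months. It read 6.62, 5.97 and 6.10 in the aged mice and 4.72, 5.17 and 5.29 in the young mice, so that the ages were separate. The difference was 1.17 (SE 0.25; limma over all probe sets, adjusted p = 0.588), near that of the Serpina1b probe sets. Because it may read the same transcripts as those probe sets, it does not add an independent measurement.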

How the results depend on the processing

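The count of Serpin genes past an adjusted limma p of 0.05 was 0 under every alternative run, as were those of Serpin probe sets and partner genes. Over all genes it was 0, but 4 with a 60th percentile filter, 5 with the mean of probe sets, 5 with each array centred, 2 with an intensity trend, 4 with array weights and 1 with either covariate. At an unadjusted p under 0.05, Serpin genes higher numbered 4 with all mice and 2 to 4 without any 1 mouse, the fewest without 2-month replicate 1, and 2 with a 60th percentile filter, which leaves 10 Serpin genes. Genes lower numbered 1, and 1 to 2 without any 1 mouse, or 2 without both end arrays, the mice at the extremes of component 1 (18-month replicate 3 and 2-month replicate 2). Partner genes numbered 5, and 3 with the 60th percentile filter, 8 without both of those arrays and 4 to 8 without any 1 mouse. Serpin probe sets numbered 7, and 5 to 8 without any 1 mouse. The share of all genes or probe sets at such a p was not counted under the alternatives. Whether these counts moved with the background is therefore not known. The median of clade A, 1.48, was 0.0071 with no filter, where 10 dim genes enter, 2.03 with the 60th percentile filter, 1.00 without both end arrays and 1.23 to 1.70 without any 1 mouse. That of clade B, -0.38, was -0.60 to -0.09 without any 1 mouse, smallest without 2-month replicate 2.

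Serpina1c ranged from 2.55 to 3.02, Serpina1b from 1.14 to 1.34 and Serpinb1b from -0.72 to -0.56 over the alternatives. The sign turned for Serpinb6a (0.020 without both end arrays), Serpinb9 (0.10 without 2-month replicate 2, lowest -0.63), Serpind1 (0.18 without 2-month replicate 1, lowest -0.34), Serpinf1 (0.18 without 18-month replicate 2, 0.04 without 2-month replicate 1, lowest -0.39) and Serping1 (0.042 without 18-month replicate 1). Among partners it turned for Anxa2 (0.088 without 2-month replicate 2, lowest -0.67, 0.11 without both end arrays), Tpsb2 (-0.048 without 18-month replicate 1, -0.01 without 2-month replicate 1, highest 0.14), Ace (0.076 with the mean of probe sets, 0.028 without 2-month replicate 2, lowest -0.27, 0.074 without both end arrays), Atp6ap2 (0.0092 without 18-month replicate 2, lowest -0.060), Plat (0.18 without 2-month replicate 3, lowest -0.94) and Htra1 (-0.11 without 18-month replicate 3, highest 0.32, -0.11 without both end arrays). Lrp1 gave 0.11 with the mean of probe sets, 0.0055 with quantile normalization, 0.010 with array weights, 0.059 with the astrocyte covariate, 0.11 without both end arrays, and 0.06, 0.04 and 0.11 without 18-month replicate 1, 2-month replicate 1 and 2-month replicate 2, with a lowest value of -0.18. Without both end arrays Plat was -1.30, Serpinf1 -0.65 and Serping1 -0.67. Lowest and highest refer to leaving out 1 mouse at a time. The cause was not tested.

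The labels number the mice of each age from 1 to 3. Deviations from the group mean correlated at -0.02, 0.02 and 0.17 between mice of the same number. Between mice of different numbers they correlated at -0.15 to 0.14. With 3 mice an age, these values cannot show whether the numbers pair the mice. With the replicate number as a block, 0 Serpin genes passed, and 4 were higher and 1 lower at an unadjusted limma p under 0.05. Such a p was also found for 8 Serpin probe sets and 5 partner genes. The share of all genes at such a p was not counted with the block.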
